A study of Saccharomyces cerevisiae with 6 samples.

Results

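The tRNA pool of *paf1∆* yeast was compared with that of wild type yeast by tRNA-HySeq, in which gel-purified tRNA is cut by mild alkaline hydrolysis and the fragments of 19 to 35 nt are sequenced. The comparison took the 2 *paf1∆* libraries (strain DAS516) and the 2 wild type libraries (strain DAS217), 4 of the 6 libraries of the series, chosen by their labels. The other 2 libraries came from *rtf1∆* cells (strain DAS549), which lack another subunit of the same complex, and were used only to show where *paf1∆* differs. In the study's strain list both deletions are replacements by HIS3 in MATα cells with ade2, ura3, trp1, leu2, his3 and can1 alleles, and DAS217 has no entry there, so the background of the wild type strain is known from its label alone. All cells were grown in YEP medium with 2% glucose at 30 °C to log phase, at an A600 of 0.6 to 0.8. In each library the reads on 70 tRNA sequences were counted, and all 70 were used. They belong to 43 types of amino acid and anticodon and to 22 sets by amino acid, with initiator methionine tRNA (iMet) kept apart and 1 sequence without an assigned anticodon as a set of its own. *PAF1* is not a tRNA gene, so its deletion cannot be seen in these counts.

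Paf1 is a subunit of the PAF1 complex, which travels with RNA polymerase II and acts in elongation and in histone modification. The tRNA genes are transcribed by RNA polymerase III from promoters inside the gene. Most amino acids are carried by more than one tRNA with different anticodons, called isoacceptors, which read different codons, and many yeast tRNAs are encoded by several gene copies of identical sequence.

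The *paf1∆* libraries had 8259323 and 7906642 aligned reads, against 519302 and 1435676 in the wild type libraries. These were 87.9% and 87.4% of all reads in *paf1∆*, against 6.76% and 6.43% in wild type. Each reference sequence is listed as 3 nt longer for the *paf1∆* libraries than for the wild type and *rtf1∆* libraries, so genotype and processing cannot be told apart in any comparison with *paf1∆*. The library names put wild type replicate 1 in a first set and wild type replicate 2 in a second, and give no set for *paf1∆*. The sequence with the fewest reads had 6842 and 3702 reads in the *paf1∆* libraries, against 67 and 90 in the wild type libraries. The median difference between the replicates of a genotype was 0.48 in *paf1∆* and 0.40 in wild type on the log2 scale, over the 70 sequences. The difference exceeded 1 for 23 sequences in *paf1∆* and for 9 in wild type. Nothing in the labels says that the replicates were separate cultures, so the p-values measure only the spread between these libraries, which may be technical. A level here is a part of the tRNA reads of its library, so a change common to the whole pool is out of view. The study analysed its tRNA-HySeq counts with the DESeq package. It reported both higher and lower relative tRNA levels in *paf1∆*, and found these changes statistically insignificant. The calls given below come from other tests of the deposited counts.

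The sequences of the tRNAs on which the results turn are given as mature sequences without introns and without any added 3′ end, 5′ to 3′, from the R64 reference of RefSeq. Capitals mark the anticodon, in which T stands for U of the RNA. The first 3 are arginine tRNAs whose shares differed between the genotypes, tRNA-Arg(UCU) from 11 identical genes (YNCB0015W, chrII:405878-405949, plus strand), tRNA-Arg(CCU) from the single gene HSX1 (chrX:538555-538626, plus strand) and tRNA-Arg(CCG) from the single gene TRR4 (chrXII:818609-818680, plus strand).
tRNA-Arg(UCU): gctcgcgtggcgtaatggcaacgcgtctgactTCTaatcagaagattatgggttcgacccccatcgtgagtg
tRNA-Arg(CCU): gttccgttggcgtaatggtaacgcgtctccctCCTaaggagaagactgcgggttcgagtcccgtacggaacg
tRNA-Arg(CCG): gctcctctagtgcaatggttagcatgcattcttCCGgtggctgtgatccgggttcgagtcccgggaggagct
The sequence of tRNA-Arg(UCU) differed by 19 edits from that of tRNA-Arg(CCU) and by 34 from that of tRNA-Arg(CCG). None of its 54 windows of 19 nt, the shortest fragment sequenced, was found in either.

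A pair of serine tRNAs is shown because they are nearly alike. These are tRNA-Ser(CGA) from the single gene SUP61 (chrIII:227942-228042, plus strand, with an intron of 19 nt) and tRNA-Ser(UGA) from 3 identical genes (SUP19, chrV:288443-288524, minus strand).
tRNA-Ser(CGA): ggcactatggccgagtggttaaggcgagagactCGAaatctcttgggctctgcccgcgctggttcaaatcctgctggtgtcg
tRNA-Ser(UGA): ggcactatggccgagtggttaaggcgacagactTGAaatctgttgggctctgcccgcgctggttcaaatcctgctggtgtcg
They differed by 3 edits once spliced, and 31 of the 83 windows of 19 nt (37.3%) of the SUP61 gene, intron included, were also in the SUP19 gene. Of the 64 windows of the SUP19 gene, which has no intron, 31 (48.4%) were in the SUP61 gene. Reads from these stretches cannot be assigned to one of the pair.

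The last 3 are the anticodons with the lowest fold changes in *paf1∆* relative to wild type. Initiator methionine tRNA, which starts every protein, comes from 5 identical genes (YNCC0008W, chrIII:149920-149991, plus strand), and elongator methionine tRNA, which reads the same codon inside proteins, from 5 others (EMT1, chrIV:1175829-1175901, plus strand). tRNA-Gln(CUG) comes from the single gene CDC65 (chrXIII:808246-808317, minus strand).
iMet(CAU): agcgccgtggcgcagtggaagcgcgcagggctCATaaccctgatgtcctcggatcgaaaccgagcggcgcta
Met(CAU): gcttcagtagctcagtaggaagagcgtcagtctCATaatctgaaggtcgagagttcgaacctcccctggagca
tRNA-Gln(CUG): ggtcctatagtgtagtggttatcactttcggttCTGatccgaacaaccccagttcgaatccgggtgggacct
The methionine tRNAs differed by 28 edits and shared no window of 19 nt.

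The share of each isoacceptor among the reads of its amino acid does not depend on the scaling between libraries. It was therefore the first comparison made, over the 35 anticodons of the 13 amino acids with at least 2. The largest difference in mean share was that of an arginine tRNA. Of the arginine reads, tRNA-Arg(UCU), which reads AGA, the most used arginine codon of yeast, took 86.7% and 92.1% in the *paf1∆* libraries, against 46.2% and 46.5% in the wild type libraries. The remaining reads fell on tRNA-Arg(ACG), which reads CGU, CGC and CGA, with 9.34% and 4.07% in *paf1∆* and 26.03% and 28.56% in wild type. tRNA-Arg(CCG), which reads CGG, had 1.80% and 2.57% in *paf1∆* and 16.3% and 12.3% in wild type. tRNA-Arg(CCU), which reads AGG, had 2.14% and 1.28% in *paf1∆* and 11.5% and 12.7% in wild type. Both *paf1∆* libraries thus lay above both wild type libraries for the UCU anticodon and below them for the other anticodons, with wide gaps between the groups. In the *rtf1∆* libraries the UCU share was 52.6% and 47.4%, nearer to the wild type than to the *paf1∆* libraries.

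**Figure D1:**
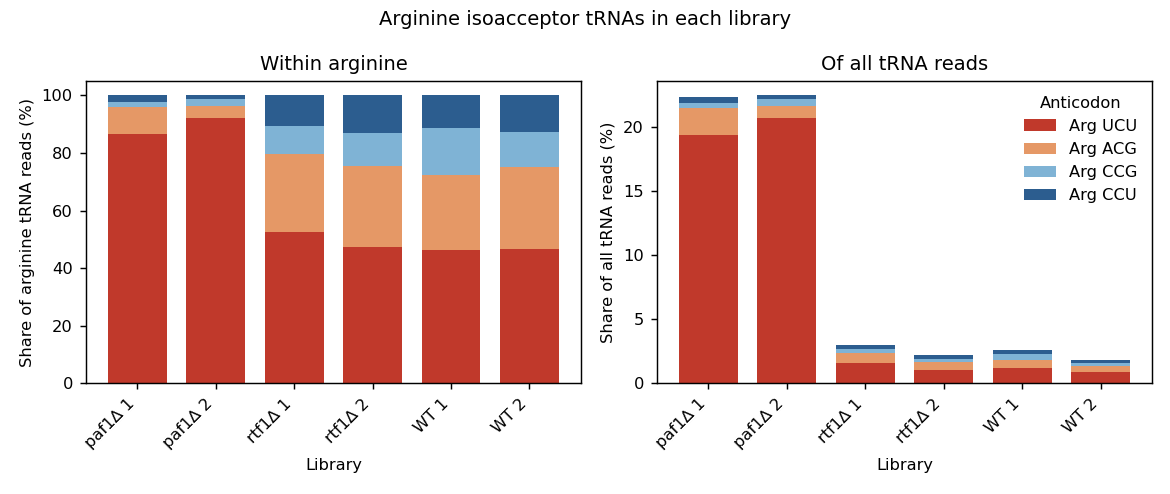
Stacked bars give the reads of the arginine anticodons in each library as a percentage of all arginine tRNA reads (left) and of all tRNA reads (right), for *paf1∆*, *rtf1∆* and wild type (WT) replicates 1 and 2. The UCU anticodon takes 86.7% and 92.1% of the arginine reads in *paf1∆* against 46.2% and 46.5% in WT, and arginine takes 22.3% and 22.4% of all tRNA reads in *paf1∆* against 2.55% and 1.81% in WT.

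In the usage test of edgeR (diffSpliceDGE, which sets each anticodon against its amino acid as a whole, with Benjamini-Hochberg adjustment), 3 of the 35 anticodons passed an adjusted p of 0.05 (8.57% of those tested), all of them arginine anticodons with a lower share in *paf1∆*. The usage of tRNA-Arg(CCU) fell by 2.83 on the log2 scale (standard error 0.51, edgeR adjusted p = 0.00422), that of tRNA-Arg(CCG) fell by 2.71 (standard error 0.50, adjusted p = 0.00422) and that of tRNA-Arg(ACG) fell by 2.05 (standard error 0.45, adjusted p = 0.0203). For tRNA-Arg(UCU) the usage difference was 0.95 (standard error 0.39, edgeR adjusted p = 0.549), where the test sets an anticodon against the summed arginine counts, most of which were on this anticodon. With limma-voom's diffSplice, which sets it against the other anticodons, tRNA-Arg(UCU) was the only call, with a higher usage of 3.41 (adjusted p = 0.00182), and the other 3 gave an adjusted p of 0.348 to 0.357. Without wild type replicate 1 no edgeR usage call was left, and the adjusted p of the arginine anticodons was then 0.0673 for CCU, 0.124 for CCG and 0.154 for ACG. That of ACG was also 0.217 without *paf1∆* replicate 2 and 0.0655 without wild type replicate 2.

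The 3 called shares were lower beside tRNA-Arg(UCU), not within the tRNA pool. Of all aligned reads, tRNA-Arg(UCU) took 19.4% and 20.7% in the *paf1∆* libraries, against 1.18% and 0.842% in the wild type libraries. It was the most abundant sequence in both *paf1∆* libraries, while elongator methionine tRNA was in both wild type libraries. Summed over its 2 sequences, tRNA-Ser(AGA) took 9.37% and 25.4% of all reads in *paf1∆*, which was more than tRNA-Arg(UCU) in replicate 2. tRNA-Arg(CCU) took 0.479% and 0.287% of all reads in *paf1∆*, against 0.293% and 0.230% in wild type. In counts summed by anticodon and scaled by edgeR's TMM method, tRNA-Arg(UCU) rose 22.8-fold (log2 fold change 4.51, standard error 0.52, adjusted p = 0.00261). The log2 fold changes of tRNA-Arg(ACG), tRNA-Arg(CCG) and tRNA-Arg(CCU) were 1.51, 0.85 and 0.73, with edgeR adjusted p-values of 0.0856, 0.261 and 0.332. When tRNA-Arg(UCU) was left out, a choice made after these values were seen, tRNA-Arg(ACG) had 70.3% and 51.4% of the arginine reads left in *paf1∆*, against 48.4% and 53.4% in wild type. tRNA-Arg(CCG) had 13.5% and 32.4% in *paf1∆* against 30.3% and 22.9% in wild type, and tRNA-Arg(CCU) 16.1% and 16.1% in *paf1∆* against 21.3% and 23.7% in wild type. The groups overlapped for ACG and CCG and not for CCU. The edgeR usage test without tRNA-Arg(UCU) called none of the anticodons, and the usage differences of ACG, CCG and CCU were 0.30, -0.32 and -0.48 on the log2 scale, each with an adjusted p of 0.994.

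Beyond arginine no usage difference passed the edgeR test. The count at an unadjusted p under 0.05 was also 3, the arginine anticodons named above. Shares of 17 of the 35 anticodons (48.6%), in 8 of the 13 amino acids, did not overlap between the 2 *paf1∆* and the 2 wild type libraries, and with 2 libraries each the smallest two-sided p of an exact permutation test is 0.3333. For glutamine, tRNA-Gln(CUG) took 19.6% and 23.2% of the reads in *paf1∆*, against 43.8% and 46.5% in wild type. The libraries of each genotype lay close together and the groups far apart, but the usage difference was -1.11 on the log2 scale (standard error 0.48, edgeR adjusted p = 0.520). The other glutamine tRNA, tRNA-Gln(UUG), took the remaining reads. For threonine, tRNA-Thr(UGU) took 59.6% and 39.6% in *paf1∆*, against 15.3% and 23.3% in wild type, with a usage difference of 1.32 (standard error 0.67, edgeR adjusted p = 0.520). In *paf1∆* this was the largest threonine share in replicate 1 and not in replicate 2, where tRNA-Thr(AGU) had 48.2%.

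**Figure D2:**
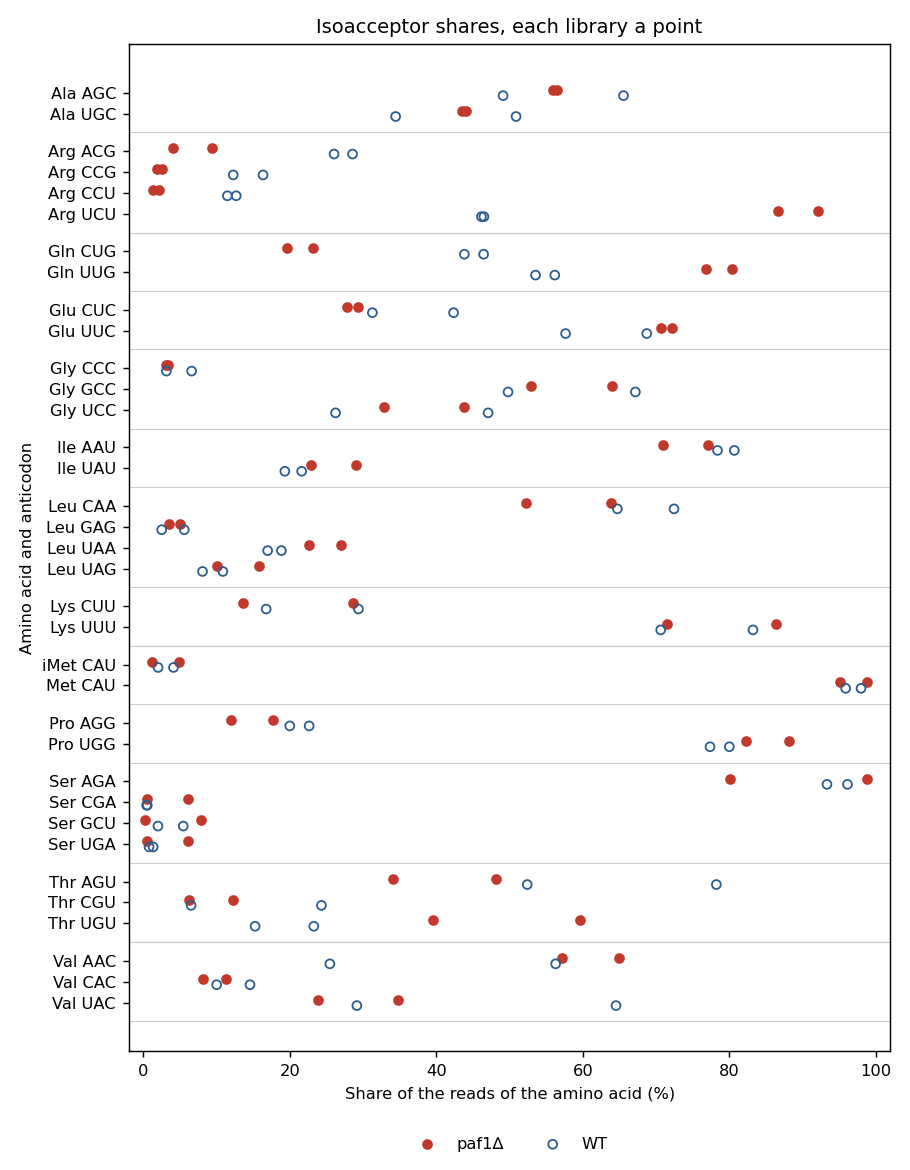
Each point is 1 library and gives, on the x axis, the percentage of an amino acid's reads on 1 anticodon, for *paf1∆* (filled) and wild type (WT, open), with the 35 anticodons of 13 amino acids down the y axis. The genotypes stand furthest apart at arginine UCU, with 86.7% and 92.1% in *paf1∆* against 46.2% and 46.5% in WT, while the points of alanine, glycine, lysine, methionine and serine overlap.

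In proline, tRNA-Pro(AGG) took 11.9% and 17.7% in *paf1∆* against 19.99% and 22.63% in wild type, with a usage difference of -0.59 (standard error 0.53, edgeR adjusted p = 0.986). In isoleucine, tRNA-Ile(AAU) took 77.15% and 70.98% in *paf1∆* against 80.7% and 78.4% in wild type, a usage difference of -0.092 (standard error 0.40, adjusted p = 0.986). In glutamate, tRNA-Glu(CUC) took 27.8% and 29.4% in *paf1∆* against 31.3% and 42.4% in wild type, a usage difference of -0.34 (standard error 0.41, adjusted p = 0.986). In each of these the groups did not overlap, but the gap between them was smaller than the difference between the replicates of at least 1 genotype. In leucine, tRNA-Leu(CAA), whose genes have an intron, took 63.9% and 52.2% in *paf1∆* against 64.7% and 72.5% in wild type (usage difference -0.22, standard error 0.40, adjusted p = 0.986). In valine, tRNA-Val(AAC) took 64.9% and 57.1% in *paf1∆* against 56.3% and 25.5% in wild type (usage difference 0.58, standard error 0.50, adjusted p = 0.986). The wild type replicates stood further apart than the nearest libraries of the genotypes.

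The shares of the other amino acids overlapped. tRNA-Ala(AGC) took 56.0% and 56.5% in *paf1∆* against 49.1% and 65.6% in wild type, tRNA-Gly(UCC) 43.7% and 32.9% in *paf1∆* against 26.2% and 47.1% in wild type, and tRNA-Lys(CUU) 28.6% and 13.6% in *paf1∆* against 29.4% and 16.8% in wild type. The sign of the usage difference of these 3 anticodons changed when 1 library was left out. Initiator methionine tRNA took 4.85% and 1.22% of all methionine reads in *paf1∆*, against 4.11% and 2.01% in wild type. The balance of the methionine tRNAs was thus no further apart between the genotypes than between replicates (usage difference -0.40, standard error 0.65, edgeR adjusted p = 0.986). Both methionine tRNAs took a smaller part of all tRNA reads in the *paf1∆* than in the wild type libraries.

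In serine the *paf1∆* replicates differed widely from each other. tRNA-Ser(AGA), which reads UCU and UCC, took 80.1% and 98.8% of the serine reads in *paf1∆*, against 96.1% and 93.3% in wild type. tRNA-Ser(GCU), which reads AGU and AGC, took 7.81% and 0.282% in *paf1∆* against 1.99% and 5.45% in wild type, and tRNA-Ser(CGA), which reads UCG, 6.04% and 0.457% in *paf1∆* against 0.531% and 0.438% in wild type. The *paf1∆* replicates lay on either side of the wild type libraries for AGA and GCU, and only replicate 1 lay clearly above them for CGA. The usage difference was -0.025 for tRNA-Ser(AGA) (standard error 0.92, edgeR adjusted p = 0.986) and 2.10 for tRNA-Ser(CGA) (standard error 1.21, adjusted p = 0.549). Over all shares the 95% Wilson intervals reached at most 0.344 percentage points to either side in *paf1∆* and 0.983 in wild type. For tRNA-Ser(CGA) in wild type, with 67 and 90 reads, they ran from 0.419% to 0.674% and from 0.356% to 0.538%. Such an interval holds counting error alone, and PCR copies of a molecule are counted as separate reads.

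Summed by amino acid, arginine and serine tRNAs took a larger part of the reads in *paf1∆* than in wild type libraries. Methionine, glutamine, isoleucine and cysteine tRNAs took a smaller part. By edgeR 8 of the 22 amino acid sets (36.4%) passed the adjusted p of 0.05, of which 3 rose (13.6%) and 5 fell (22.7%). Arginine tRNAs took 22.3% and 22.4% of all aligned reads in *paf1∆*, against 2.55% and 1.81% in wild type (log2 fold change 3.78, standard error 0.40, edgeR adjusted p = 0.00107). Serine tRNAs took 11.7% and 25.7% in *paf1∆*, against 2.43% and 1.43% in wild type (log2 fold change 3.75, standard error 0.57, adjusted p = 0.00466). Asparagine tRNA, of a single anticodon, took 3.43% and 0.890% in *paf1∆*, against 0.761% and 0.300% in wild type (log2 fold change 2.43, standard error 0.70, adjusted p = 0.0448). The same counts did not pass by edgeR among the anticodon sums (adjusted p = 0.0778) or among the sequences (adjusted p = 0.0579). The arginine share was almost the same in both *paf1∆* libraries, while the serine and asparagine shares differed more than 2-fold between them.

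Initiator methionine tRNA fell to 0.0828% and 0.0561% of all reads in *paf1∆*, against 0.615% and 0.370% in wild type (log2 fold change -2.41, standard error 0.74, edgeR adjusted p = 0.0448), a call that was lost with upper-quartile scaling (adjusted p = 0.0560) and with total counts (adjusted p = 0.0881). Elongator methionine tRNA fell to 1.63% and 4.54% in *paf1∆*, against 14.4% and 18.0% in wild type (log2 fold change -1.98, standard error 0.62, adjusted p = 0.0448), while its edgeR adjusted p was 0.0711 among the anticodon sums. This call was lost with DESeq size factors (edgeR adjusted p = 0.0773) and in the fit of 6 libraries (adjusted p = 0.0586), and the log2 fold change was -1.38 without *paf1∆* replicate 1 (adjusted p = 0.211) and -3.20 without *paf1∆* replicate 2 (adjusted p = 4.65e-04). Glutamine tRNAs had 1.95% and 1.19% in *paf1∆* and 5.42% and 7.07% in wild type (log2 fold change -1.65, standard error 0.43, adjusted p = 0.0371). Both glutamine anticodons had lower levels in both *paf1∆* libraries. Isoleucine tRNAs had 2.10% and 1.30% in *paf1∆* and 6.83% and 5.27% in wild type (log2 fold change -1.44, standard error 0.36, adjusted p = 0.0371). Cysteine tRNA had 1.31% and 0.826% in *paf1∆* and 4.10% and 2.57% in wild type (log2 fold change -1.24, standard error 0.38, adjusted p = 0.0448), which did not pass with a minimum of 1000 counts (edgeR adjusted p = 0.0501). In each of these 5 sets every *paf1∆* library lay below every wild type library.

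**Figure D3:**
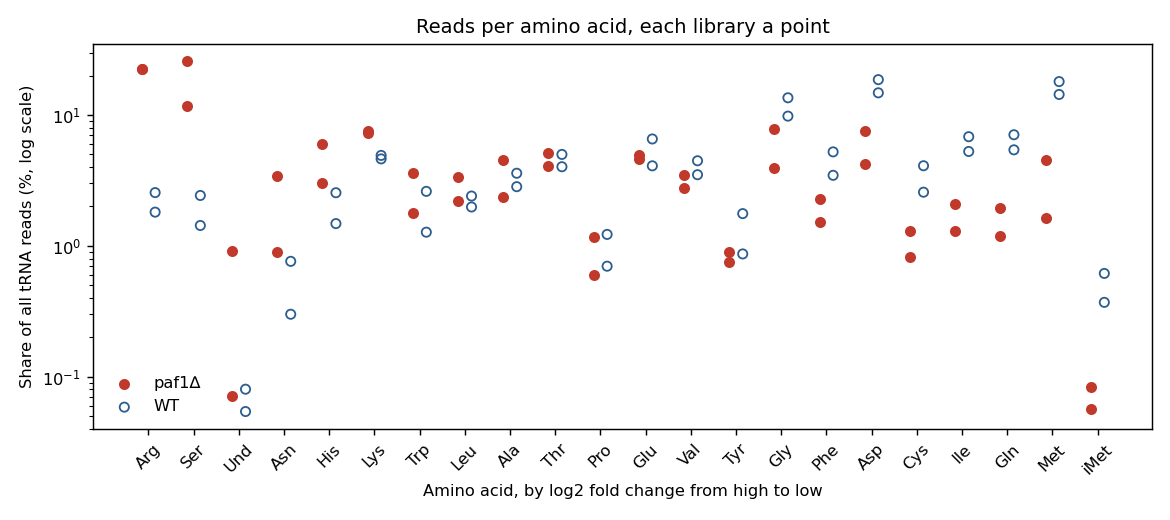
Each point is 1 library and gives on a log y axis the percentage of all tRNA reads on the tRNAs of 1 amino acid, for *paf1∆* (filled) and wild type (WT, open), with amino acids ordered by log2 fold change along the x axis (Und, the sequence with no assigned anticodon). Arginine at 22.3% and 22.4% in *paf1∆* against 2.55% and 1.81% in WT is at the high end, and initiator methionine (iMet) at 0.0828% and 0.0561% in *paf1∆* against 0.615% and 0.370% in WT at the low end.

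Of the sets that did not pass, the sequence with no assigned anticodon had 0.915% and 0.0716% of the reads in *paf1∆* against 0.0541% and 0.0802% in wild type (log2 fold change 3.14, standard error 1.21, edgeR adjusted p = 0.0694), and only replicate 1 of *paf1∆* stood high. Its length is that of 2 serine genes of the R64 reference, 1 edit from the gene of tRNA-Ser(GCU). Histidine tRNA had 3.05% and 5.97% in *paf1∆* and 1.48% and 2.55% in wild type (log2 fold change 1.53, standard error 0.57, adjusted p = 0.0681). Aspartate tRNA had 7.52% and 4.19% in *paf1∆* and 14.8% and 18.7% in wild type (log2 fold change -1.18, standard error 0.44, adjusted p = 0.0681), without overlap of the groups. In all, 18 of the 22 sets (81.8%) did not overlap between the genotypes in scaled counts (CPM, counts set to a common library size by TMM). This count, like those for anticodons and sequences below, depends on the scaling. In shares of all aligned reads the groups overlapped for alanine, glutamate, leucine, threonine, tryptophan and the sequence with no assigned anticodon, which are among the 18. Glycine and valine, which are not among the 18, did not overlap in shares. Without *paf1∆* replicate 1 or without wild type replicate 2 none of the 22 sets passed by edgeR, without *paf1∆* replicate 2 4 did, without wild type replicate 1 3 did, and the adjusted p of arginine and serine was then at most 0.0611. Each of these fits has 1 library in a group, which is assumed to vary like the others.

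By anticodon, 7 of the 43 sums (16.3%) passed by edgeR, 4 higher (9.3%) and 3 lower (6.98%), and in 29 (67.4%) the libraries of the genotypes did not overlap in CPM. With DESeq size factors the split was 4 higher and 5 lower. Besides tRNA-Arg(UCU) these were 3 serine anticodons that rose and 3 anticodons of other amino acids that fell. tRNA-Ser(CGA), the anticodon with the fewest reads in wild type, had 58348 and 9273 reads in the *paf1∆* libraries, against 67 and 90 in the wild type libraries. This was 7188 and 1304 CPM in *paf1∆* and 107 and 66.7 CPM in wild type, and tRNA-Ser(CGA) rose by 5.62 on the log2 scale (standard error 1.04, edgeR adjusted p = 0.0156). tRNA-Ser(UGA), which reads UCA, rose by 4.47 (standard error 1.03, adjusted p = 0.0256) and tRNA-Ser(AGA) by 3.49 (standard error 0.68, adjusted p = 0.0157). The *paf1∆* replicates differed several-fold in each of the serine tRNAs, with the higher level of CGA and UGA in replicate 1 and that of AGA in replicate 2, but every *paf1∆* library lay above every wild type library for these 3 anticodons. tRNA-Ser(GCU) had 9296 and 804 CPM in *paf1∆* against 402 and 829 CPM in wild type, and the groups overlapped (edgeR adjusted p = 0.0928).

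tRNA-Gln(CUG) had 3894 and 3060.2 CPM in *paf1∆*, against 19745 and 34918 CPM in wild type, and fell by 2.97 on the log2 scale (standard error 0.52, edgeR adjusted p = 0.0156). Initiator methionine tRNA had 843 and 624 CPM in *paf1∆*, against 5115 and 3933 CPM in wild type, and fell by 2.62 (standard error 0.57, adjusted p = 0.0233). tRNA-Ile(AAU), which reads AUU and AUC, had 16469.5 and 10285.5 CPM in *paf1∆*, against 45814 and 43899.9 CPM in wild type, and fell by 1.75 (standard error 0.47, adjusted p = 0.0498). The gaps between the genotypes were wider than those between replicates in all 3. The other anticodons probed on northern blots in the study did not pass. On those blots the study reported small, significant increases of mature tRNAs in both deletion strains, normalized to a small nuclear RNA. Initiator methionine tRNA and tRNA-Arg(UCU) were among the tRNAs probed, and their log2 fold changes here were -2.62 and 4.51. The values here are parts of the tRNA reads, which is another measure. tRNA-Glu(UUC) took 3.57% and 3.25% of all reads in *paf1∆*, against 4.51% and 2.36% in wild type (log2 fold change 0.21, edgeR adjusted p = 0.668). tRNA-Leu(CAA) took 2.14% and 1.16% in *paf1∆*, against 1.56% and 1.44% in wild type (log2 fold change 0.30, adjusted p = 0.590). These pairs overlapped, and tRNA-Phe(GAA), with 1.51% and 2.28% in *paf1∆* against 5.23% and 3.46% in wild type, did not (log2 fold change -0.98, adjusted p = 0.161). The sign for tRNA-Glu(UUC) was negative under total-count scaling.

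**Figure D4:**
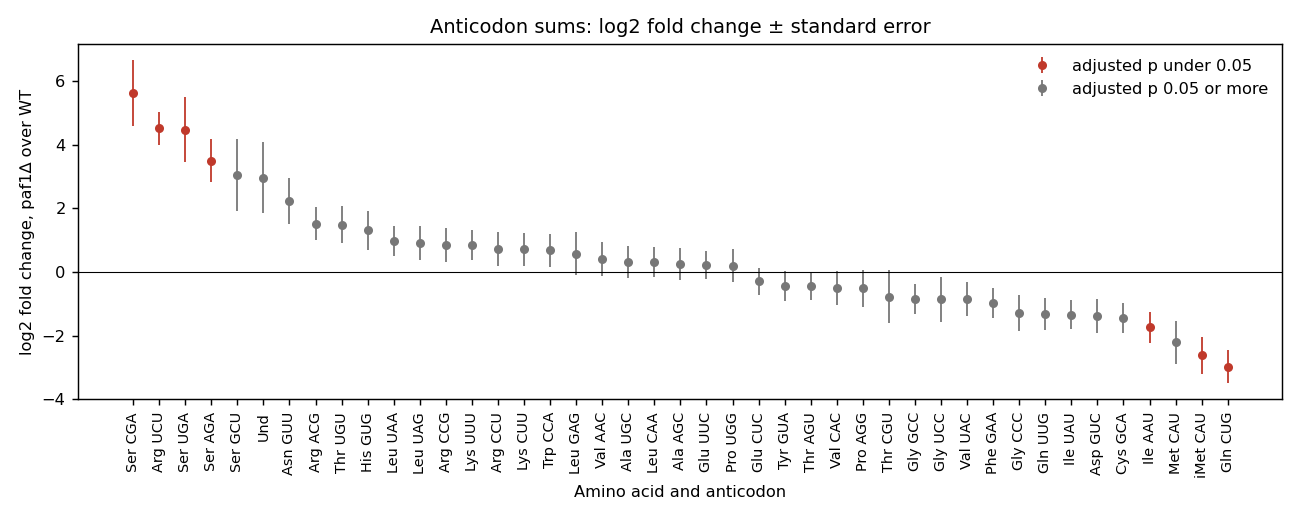
Points give the log2 fold change of *paf1∆* over wild type (WT) for the counts of each of the 43 anticodon types, on the y axis, with the standard error from edgeR as bars (red, adjusted p under 0.05). Serine CGA at 5.62 and arginine UCU at 4.51 are at the high end, glutamine CUG at -2.97 and initiator methionine at -2.62 at the low end, and 7 of the 43 pass the test.

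The 7 calls by anticodon depended on the libraries. Without either *paf1∆* library or without wild type replicate 2 none passed by edgeR, and without wild type replicate 1 5 did. The fold changes of all 7 kept their direction, with tRNA-Arg(UCU) at 3.99 to 4.62 on the log2 scale (adjusted p = 0.0512 to 0.253), tRNA-Ser(CGA) at 3.92 to 5.99 (adjusted p = 0.00217 to 0.253), tRNA-Gln(CUG) at -3.33 to -2.58 (adjusted p = 0.0110 to 0.150) and initiator methionine tRNA at -2.88 to -2.42 (adjusted p = 0.00205 to 0.155) over the 4 libraries left out in turn. tRNA-Arg(UCU), tRNA-Ser(AGA) and tRNA-Ile(AAU) passed in none of the 4 edgeR fits. The log2 fold changes were 2.10 to 4.07 for tRNA-Ser(AGA), -2.12 to -1.71 for tRNA-Ile(AAU) and 2.75 to 5.17 for tRNA-Ser(UGA). The lowest value of tRNA-Ser(AGA) was that without *paf1∆* replicate 2, and the lowest values of tRNA-Ser(UGA) and tRNA-Ser(CGA) were those without *paf1∆* replicate 1. With upper-quartile scaling of all 4 libraries the calls of initiator methionine tRNA, tRNA-Ser(AGA) and tRNA-Ser(UGA) were lost (edgeR adjusted p = 0.0533 each).

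Groups of anticodons with a shared property were described by counts, beside all 43 anticodons, of which 24 were higher and 19 lower in *paf1∆* with a median log2 fold change of 0.25. Leucine and serine tRNAs, which have a long variable arm, were higher in 8 of 8 anticodons, of which 3 passed the edgeR test (all of them serine), with a median of 2.00. The 4 serine anticodons lay at 3.04 to 5.62 on the log2 scale and the 4 leucine anticodons, none of which passed, at 0.30 to 0.97, where tRNA-Leu(CAA) was -0.13 without *paf1∆* replicate 1. The other 34 assigned anticodons were 15 higher and 19 lower with a median of -0.44. Of the 5 anticodons with the i6A modification next to the anticodon in yeast, the 3 serine anticodons rose and tRNA-Tyr(GUA) and tRNA-Cys(GCA) had log2 fold changes of -0.43 and -1.45, which did not pass. Of the 13 anticodons with U at the wobble position, 9 were higher and 4 lower with a median of 0.32, and 2 rose by the test. Of the 13 with C at this position 6 were higher and 7 lower with a median of -0.29, of the 9 with G 4 were higher and 5 lower with a median of -0.43, and of the 7 with A 4 were higher and 3 lower with a median of 0.25. Among anticodons with the mcm5 modification of U, 3 were higher and 2 lower, which total-count scaling turned to 2 and 3, and among those with ncm5 5 were higher and 1 lower, each with 1 that rose by the test.

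Anticodons whose genes carry an intron were higher in 7 of 10, with a median of 0.49, and 1 of these, tRNA-Ser(CGA), passed. Those without an intron were 16 higher and 16 lower with a median of -0.041 (15 and 17 under total-count scaling). Of the 6 anticodons with a single gene, tRNA-Ser(CGA) rose, tRNA-Gln(CUG) fell, and tRNA-Arg(CCG), tRNA-Arg(CCU), tRNA-Leu(GAG) and tRNA-Thr(CGU) had log2 fold changes of 0.85, 0.73, 0.57 and -0.78. A single gene thus did not go with one direction. Anticodons of the 22 for class I synthetases were 11 higher and 11 lower (10 and 12 under total-count scaling), and of the 20 for class II synthetases 12 higher and 8 lower. Under total-count scaling the median of all 43 anticodons moved to 0.10 and that of the mcm5 anticodons to -0.011, and the median of the long variable arm anticodons was 1.87.

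Among the 70 single sequences 13 passed by edgeR (18.6%), 6 higher (8.57%) and 7 lower (10%). With DESeq size factors the split was 9 higher and 5 lower, and tRNA-Cys(GCA) and sequence 1 of tRNA-Ile(UAU) did not pass (edgeR adjusted p = 0.0560 and 0.0558). Of anticodons with 1 sequence, tRNA-Arg(UCU), tRNA-Ser(CGA) and tRNA-Ser(UGA) rose by 4.43, 5.27 and 4.13 on the log2 scale and tRNA-Gln(CUG), initiator methionine tRNA and tRNA-Ile(AAU) had log2 fold changes of -3.14, -2.77 and -1.93. The edgeR adjusted p was 0.0400 for tRNA-Ile(AAU) and 0.0113 for the other 5. For these anticodons the counts are the same as in the sums by anticodon, scaled and fitted anew over the 70 sequences, so the values are not separate support. The rest were tRNA-Ser(AGA) sequences 1 and 2, which rose by 3.25 and 3.93 on the log2 scale (standard errors 0.85 and 0.90, edgeR adjusted p = 0.0496 and 0.0322), sequence 1 of tRNA-Arg(ACG), which rose by 1.54 (standard error 0.43, adjusted p = 0.0498), and sequence 1 of tRNA-Ile(UAU), which fell by 1.61 (standard error 0.44, adjusted p = 0.0498). tRNA-Cys(GCA) had 10012.5 and 11029 CPM in *paf1∆*, against 34227 and 30091 CPM in wild type, and fell by 1.61 (standard error 0.45, adjusted p = 0.0498) as a single sequence, while its adjusted p among the anticodon sums was 0.0778. Sequence 2 of tRNA-Gly(CCC) had 895 and 626 CPM in *paf1∆*, against 3534 and 2706 CPM in wild type, and fell by 2.04 (standard error 0.40, adjusted p = 0.0166). In 43 of the 70 sequences (61.4%) the libraries of the genotypes did not overlap in CPM. Sequences with the same spliced form can share reads, so the 70 are not all separate measurements. The 5 sequences of tRNA-Leu(CAA), with 1 spliced form, each took 19.9% to 20.2% of its reads in *paf1∆* replicate 1. Sequence 2 of tRNA-Glu(UUC) had 2340.0 and 1367 CPM in *paf1∆*, against 17690.5 and 13076 CPM in wild type, and fell by 3.05 (standard error 0.51, edgeR adjusted p = 0.0113). Without wild type replicate 2 no sequence passed, and without wild type replicate 1 8 did.

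Several sequences of 1 anticodon are near-identical, and the division of reads between them differed between *paf1∆* and the other genotypes. For tRNA-Glu(UUC), whose gene sequences differ by 1 edit and share 88.9% of their windows of 19 nt, sequence 1 had 10.7 and 30.7 times the reads of sequence 2 in *paf1∆*, against 1.13 and 1.11 times in wild type. For tRNA-Val(AAC), with 1 edit and 98.2% of windows shared, the ratio was 3.18 and 12.4 in *paf1∆*, against 1.02 and 0.996 in wild type. In *rtf1∆* these ratios were 1.29 and 1.21 for glutamate and 0.930 and 0.999 for valine. Reads were thus divided almost evenly in all 4 libraries with the shorter reference and very unevenly in both libraries with the longer one. Which gene sequence stands behind which count cannot be told for these anticodons, because both have the same length.

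The ratio moved the other way for tRNA-Asp(GUC). Sequence 1, of 15 genes, had 1.20 and 1.38 times the reads of sequence 2, of 1 gene, in *paf1∆*, against 8.11 and 11.3 times in wild type, with 5.15 and 7.32 in *rtf1∆*. These sequences differ by 4 edits and share 85.2% of the windows. For tRNA-Ser(AGA), with 10 genes for sequence 1 and 1 gene for sequence 2, the ratio was 1.07 and 1.01 in *paf1∆*, against 1.48 and 1.85 in wild type. tRNA-Ser(CGA) had 0.991 and 1.01 times the reads of tRNA-Ser(UGA) in *paf1∆*, against 0.399 and 0.563 times in wild type and 0.373 and 0.648 times in *rtf1∆*. The sequence with no assigned anticodon had 1.00 and 0.990 times the reads of tRNA-Ser(GCU) in *paf1∆*, against 1.12 and 1.03 times in wild type. For both serine pairs and tRNA-Ser(AGA) the counts in *paf1∆* were thus nearly equal within a pair. For tRNA-Gly(CCC) the ratio of sequence 1 to sequence 2 was 1.26 and 1.62 in *paf1∆*, against 0.528 and 0.839 in wild type, and for tRNA-Arg(ACG) it was 6.49 and 7.07 in *paf1∆* against 2.55 and 2.78 in wild type. These copies share only 16.7% and 43.6% of their windows. The ratio of the tRNA-Thr(UGU) sequences, at 8.08 and 16.4 in *paf1∆*, overlapped with 2.24 and 15.6 in wild type. The part of the longer reference in these ratios was not tested, and the levels of single copies are uncertain. The sums by anticodon used above do not depend on how reads are divided among the copies of 1 anticodon. They can depend on it where different anticodons share stretches, as tRNA-Ser(CGA) and tRNA-Ser(UGA) do. tRNA-Gln(CUG) shared 15 of its 54 windows of 19 nt (27.8%) with another counted sequence.

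**Figure D5:**
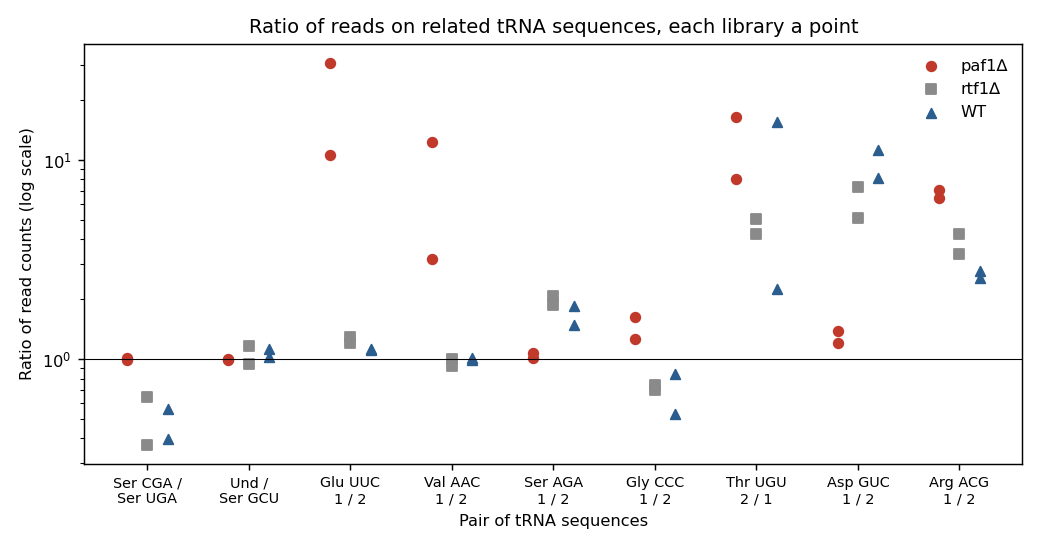
Each point is 1 library and gives, on a log y axis, the ratio of reads on the first to reads on the second of 2 related tRNA sequences, for *paf1∆* (circles), *rtf1∆* (squares) and wild type (WT, triangles), with 1 pair in each column and numbers naming the sequences of 1 anticodon (Und, the sequence with no assigned anticodon). The glutamate UUC pair lies at 10.7 and 30.7 in *paf1∆* against 1.13 and 1.11 in WT, and the aspartate GUC pair at 1.20 and 1.38 in *paf1∆* against 8.11 and 11.3 in WT.

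Relative to *rtf1∆*, in an edgeR fit of all 6 libraries, the same 3 arginine anticodons passed the usage test (3 of 35, 8.57%), with lower usage in *paf1∆*. The usage difference was -2.86 for tRNA-Arg(CCU), -2.22 for tRNA-Arg(CCG) and -2.17 for tRNA-Arg(ACG), with edgeR adjusted p-values of 6.64e-05, 6.46e-04 and 2.25e-04. By anticodon sums 22 of 43 (51.2%) passed in this comparison. tRNA-Arg(UCU) was 3.81 higher on the log2 scale in *paf1∆* than in *rtf1∆* (standard error 0.44, edgeR adjusted p = 0.00347), and initiator methionine tRNA had a log2 difference of -3.38 (standard error 0.30, adjusted p = 0.00166). Elongator methionine tRNA took 1.63% and 4.54% of the reads in *paf1∆*, against 33.2% and 39.0% in *rtf1∆*. The *rtf1∆* libraries were aligned to the shorter reference, so this comparison has the same confounding of genotype and processing.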

How the data were processed

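Counts were analysed for 2 *paf1∆*, 2 wild type and 2 *rtf1∆* libraries, grouped by their labels. On Galaxy the authors clipped adapters, trimmed bases and aligned the reads to unique yeast tRNAs. They deposited raw IdxStats counts per sequence, not normalized, beside sequence lengths and counts of unaligned reads. The processing notes name Bowtie and SAMtools. Versions, the genome build and the placing of reads that fit several sequences are not given in the sources used here. Counts were summed by anticodon and by amino acid, from the sequence names.

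Tests used edgeR version 4.0.16 in R version 4.3.3, on the 4 libraries compared, with TMM scaling and the quasi-likelihood test (two-sided), p-values being Benjamini-Hochberg adjusted, at 0.05, over all features with at least 10 counts in at least 2 libraries, which removed none. Usage was tested with diffSpliceDGE. Standard errors were obtained by dividing the size of the log2 change by the root of F. Alternatives used limma version 3.58.1, DESeq2 version 1.42.0, other scalings and filters. Intervals are 95% Wilson intervals. Depth was 519302 to 8259323 aligned reads.

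Named were the calls, in each amino acid the anticodon whose share changed most, the 5 highest and 5 lowest amino acid sums and the northern-probed tRNAs. Members and lists were chosen with earlier results of these data known. All 275 nuclear tRNA genes of R64 (RefSeq) matched a counted sequence, and 33 of the 70 sequences matched one to one. The match used amino acid, anticodon and length, but length alone for the sequence with no assigned anticodon. A gene in which no anticodon was found was matched by amino acid and length.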

Additional observations from a re-analysis of the deposited data

How the results depend on the processing

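The arginine usage calls were the same 3 under total-count scaling, a minimum of 1000 counts, the fit of 6 libraries and initiator methionine kept apart. limma-voom gave 1 usage call, sequences in place of anticodons as units 6, and leaving out tRNA-Arg(UCU) 0. For sequences the count of calls was 21 with upper-quartile scaling and 28 with DESeq2, against 13. For anticodons it was 4 with upper-quartile scaling, 12 with total counts, 17 with DESeq2, 14 with a minimum of 1000 counts and 15 in the fit of 6 libraries, against 7. The cause of these moves was not tested. Of the 13 sequence calls, total counts lost sequence 1 of tRNA-Arg(ACG), sequence 2 of tRNA-Gly(CCC) and sequence 1 of tRNA-Ile(UAU) (edgeR adjusted p = 0.0687, 0.0713 and 0.114), and a minimum of 1000 counts lost, among the sequences still tested, tRNA-Cys(GCA), tRNA-Ile(AAU) and sequence 1 of tRNA-Ile(UAU) (0.209, 0.110 and 0.109). DESeq size factors gave 14 sequence calls, 9 higher and 5 lower, against 6 and 7, and moved the median log2 fold change of all sequences to 0.13 from -0.0066. That of the amino acid sums was 0.27 with TMM and -0.14 with total counts. With 1 library left out there were 0 to 17 sequences, 0 to 5 anticodons, 0 to 4 amino acid sets and 0 to 4 usage calls.

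With the replicate number as a block there were 20 calls for sequences, 0 for anticodons, 1 for amino acids and 3 for usage. The deviations of same-numbered libraries correlated with 0.100 over sequences and 0.0635 over anticodons, and the libraries share only a number.

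The log2 fold change of tRNA-Glu(UUC) was -0.011 with total counts and -0.19 to 0.53 with a library left out, and that of tRNA-Leu(CAA) -0.13 to 0.31. The usage difference was 0.30 for tRNA-Arg(ACG) without tRNA-Arg(UCU) and -0.024 for tRNA-Gly(UCC) in the fit of 6 libraries. With a library left out it ranged from -0.22 to 0.19 for tRNA-Ala(AGC), -0.27 to 0.56 for tRNA-Gly(UCC), -0.72 to 0.35 for tRNA-Lys(CUU), -1.21 to 0.78 for initiator methionine tRNA and -0.25 to 0.058 for tRNA-Ser(AGA). The median of the 5 northern-probed anticodons was 0.21 and turned to -0.011 with total counts. Depth limits least the *paf1∆* values and most tRNA-Ser(CGA) in wild type, with 67 and 90 reads.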

Other observations

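The 7 sequences of tRNA-Pro(UGG), whose genes have an intron, had log2 fold changes of -0.13 to 0.24 in *paf1∆* relative to wild type, and the libraries of the genotypes overlapped in all 7. They come from 10 genes with 2 different spliced sequences, so the 7 can share reads and are not separate measurements.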
